A study of Mus musculus with 157 samples.

Results

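The kinases ATM, ATR and DNA-PK and the checkpoint proteins that act with them sense broken or stalled DNA and hold the cell cycle while it is repaired. The group described here was set by gene name: the kinases Atm, Atr and Prkdc (the catalytic subunit of DNA-PK), the effector kinases Chek1 and Chek2, the CDK1-inhibiting kinase Wee1, and the ATR activators and adaptors Atrip, Topbp1, Rad9a and claspin. Of the 10 names, 9 matched a row of the table, which lists 19600 genes. The name Claspn matched none, and the row of claspin is listed as Clspn. Clspn is therefore reported beside the 9 genes and is not included in their counts. The rule uses names and no measured value, although the group was proposed with earlier results of these data known.

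Splenic B cells of C57BL/6Babr mice, 8 to 12 weeks old, were activated with LPS at 10 µg/ml for 48 h (LPS). Another group received etoposide at 20 µM for 4 h after the 48 h of LPS (LPS+ET). The last had 47 h of LPS, 1 h of the ATM kinase inhibitor KU55933 at 10 µM and then the same etoposide exposure (LPS+ET+KU), so no group held the inhibitor without etoposide. No added 4 h of culture is given for the LPS group. By these times, culture time and drug cannot be told apart in comparisons with LPS. All cells were treated with cycloheximide at 100 µg/ml for 3 min, cytoplasmic extracts were run on sucrose gradients, and 3′ ends of mRNA were counted in fractions 4 to 16 of 4 gradients per treatment. Fractions 4 to 7 held monosomes, 8 to 10 light polysomes and 11 to 16 heavy polysomes. Each gradient is named by its treatment and by its library pool (LUL15 to LUL18), a tag in the column names, with every treatment represented once in a pool. The main tests had no term for the pool, so they leave out the pairing of gradients by pool. Fits with the pool as a block were alternatives. The methods call the libraries biological replicates without saying that each came from its own mouse, so the p-values measure the spread between these gradients. LPS+ET against LPS is called the etoposide comparison here, LPS+ET+KU against LPS the combined comparison, and LPS+ET+KU against LPS+ET the inhibitor comparison. The first pair share the LPS gradients, and the etoposide and inhibitor comparisons share the LPS+ET gradients.

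In the cell, ATM and DNA-PK respond mainly to double-strand breaks, which etoposide creates by trapping topoisomerase II, and ATM passes the signal to Chk2, the product of Chek2. ATR, brought to single-stranded DNA by its partner ATRIP and activated by TopBP1, passes its signal to Chk1 with claspin as the adaptor, and the Rad9a protein is part of the clamp on which TopBP1 is placed. WEE1 phosphorylates CDK1 and keeps cells out of mitosis. Programmed breaks also arise in activated B cells when they switch immunoglobulin class. Neither breaks nor the activity of this machinery was measured in these gradients.

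The 156 fraction libraries held between 14724 and 4170688 counts (median 811932), and 12 held fewer than 100000. Summed gradients held 6404957 to 21449781 counts. The LPS+ET gradient of pool LUL16 stood apart, with 30.42% of its counts in heavy polysomes against 60.55% to 68.22% in the other 3 of its group. Monosomes held 28.45% to 34.03% of the counts in LPS+ET+KU and 13.68% to 17.64% in LPS. In LPS+ET they held 29% in LUL16 and 10.85% to 12.98% in the other pools. The libraries were made from equal concentrations of RNA, so a fraction's total says nothing about how much mRNA it held, and a sum over fractions weights each fraction by its sequencing depth. This weighting differed between LPS+ET+KU and LPS, and fits of the sum with equal weight per fraction are given as an alternative. Cdkn1a, a p53 target that marks the response to damage, was at 22 to 32.4 CPM (a gene's counts scaled to the gradient's total) in LPS, 501 to 904 in LPS+ET and 402 to 837 in LPS+ET+KU. The 8 B cell markers summed to 17342 to 30526 CPM in the 12 gradients. Most of it was Ighm (mean 14412 CPM) and Cd74 (6530), while Ms4a1 had a mean of 36.8 and Pax5 of 0.953 CPM. The 5 T cell markers in the table summed to 82.8 to 374 CPM, almost all of it Lck, with Cd3e at a mean of 0.144 and Cd8a at 0.0741 CPM. The 8 myeloid markers summed to 33.6 to 140 CPM, the 4 erythroid markers in the table to 23.2 to 177, and the 5 plasma cell markers to 199 to 1238. Their part in the results was not tested.

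The 3′ end method counts 1 tag per mRNA at a poly(A) site, so levels of different genes need no correction for length. They are levels of the counted ends, because not all sites listed for a gene were counted. Counted were 3 of 7 sites for Atm, 1 of 9 for Atr, 2 of 7 for Prkdc and 5 of 9 for Chek1. For Chek2 it was 1 of 2, for Wee1 6 of 11, for Topbp1 1 of 6 and for Rad9a 3 of 5. For Clspn it was 2 of 7 and for Atrip 1 of 1. Several of these genes are counted at sites that matter for reading the values. On GRCm38, Atm lies on chromosome 9 at 53439149 to 53536740 on the minus strand, and 62.9% of its 7199 counts came from a site at 53437134, which is 2015 bases past the end that GENCODE M21 annotates. A further 19.3% came from an intronic site at 53527098 and 17.8% from a site in the annotated UTR at 53439398. Prkdc (chromosome 16, 15637866 to 15842235, plus strand) had 94.7% of its 1726 counts 20 bases past its annotated end and 5.3% in an intron. The only counted site of Atrip (chromosome 9, minus strand, 109063764) lay in an intron. The sites of Chek1, Chek2, Rad9a, Topbp1, Clspn and Atr were all within an annotated UTR, as were 5 of the 6 sites of Wee1. The site of Atr also lies within Gm16794 and those of Wee1 within 1600010M07Rik, both on the opposite strand. Whether counting used strand is not given in the sources used here, so reads of those pairs cannot be told apart.

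The bases that end at a counted site show what was measured, and the following 30-base stretches of the mRNA, read from GENCODE M21 transcripts, are given for the genes on which the results turn. Capitals mark a poly(A) signal, AATAAA or ATTAAA, found by search of the mRNA strand.
Atm, chr9:53439398-53439427, minus strand: caacctttaATTAAAgcatgttttccagac
Atr, chr9:95951615-95951644, plus strand: atatatgtaaAATAAAattatttcaaagaa
Chek1, chr9:36709439-36709468, minus strand: cataaaatttatATTAAAatatgaatatat
Chek2, chr5:110873570-110873599, plus strand: ttgaatgtgaaagaaatgtgcttccttcca
Wee1, chr7:110143257-110143286, plus strand: gtATTAAAagtcattccgtgcttaccttaa
Topbp1, chr9:103350399-103350428, plus strand: ataaagAATAAAaaaaaatagcaacttaaa
The main sites of Atr and Topbp1 carried AATAAA, those of Chek1 and Wee1 and the UTR site of Atm carried ATTAAA, and the single site of Chek2 carried neither. Among the main sites of 12560 genes with such a stretch, 55.9% held AATAAA and a further 14.1% held ATTAAA alone. The chosen stretches are descriptions of counted ends, and the absence of a signal says only that these letters were not in this window. The main sites of Atm and Prkdc lie outside the annotated transcripts and are not shown.

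In LPS, Topbp1 was the most abundant of these mRNAs in fractions 4 to 16 at 104.1 ± 17.6 CPM (SD, n = 4), followed by Atm at 58.8 ± 11.7, Chek1 at 32.7 ± 2.81 and Wee1 at 25.8 ± 2.51. Atr (17.3 ± 4.86), Clspn (16.2 ± 2.54) and Prkdc (14.9 ± 2.28) came next, and their ranges overlapped. Rad9a was at 4.99 ± 0.822 CPM and Chek2 at 1.44 ± 0.202. Atrip lay lowest at 0.776 ± 0.312 CPM, which rests on 5 to 17 counts per gradient. Before etoposide, the counted ends of Chek1 and Topbp1 in these fractions were thus far more abundant than those of Chek2. Atrip had 0 to 17 counts in any gradient, did not pass the filter on low counts and was not tested. Its levels were 0.314 ± 0.256 CPM after etoposide and 0.248 ± 0.145 when the inhibitor was added.

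**Figure D1:**
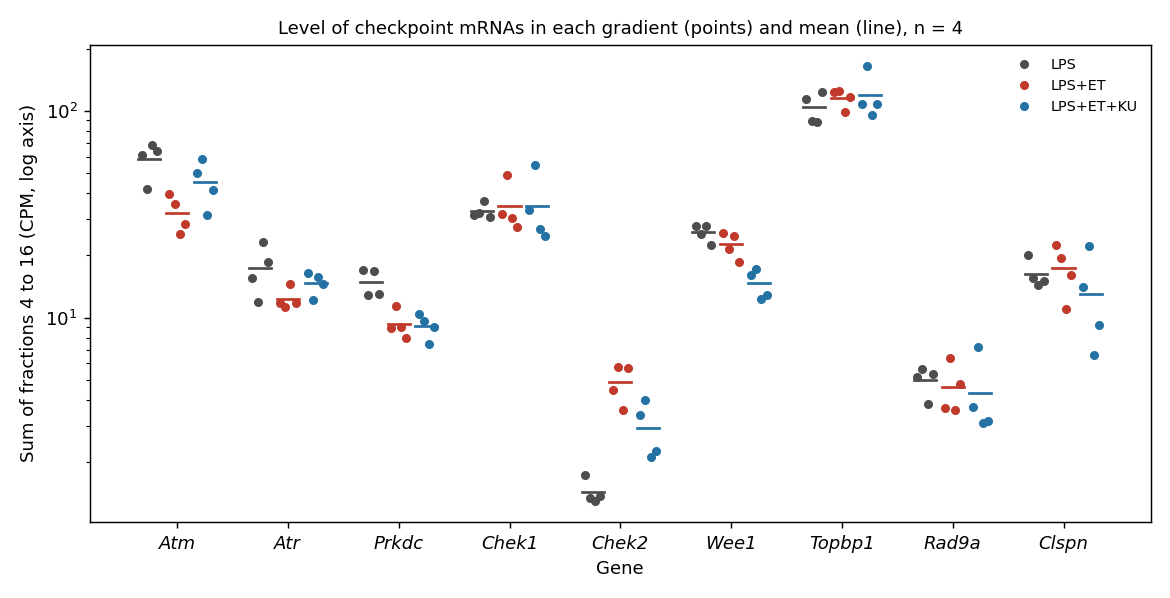
Level of 9 mRNAs in each gradient, as CPM of fractions 4 to 16 summed, on a log axis. Points are gradients (pools LUL15 to LUL18 from left to right within a group) and lines are means of 4. Chek2 points of LPS+ET and LPS+ET+KU all lie above those of LPS, while Atm and Prkdc points of LPS+ET all lie below them.

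After etoposide, the mRNA of the effector kinase Chek2 rose 3.13-fold, and those of the kinases Atm and Prkdc fell 1.98-fold and 1.73-fold. Of the 8 genes tested, these 3 were called at an adjusted p under 0.01 (edgeR quasi-likelihood test, Benjamini-Hochberg adjustment over 12755 genes). Among all 12755 genes 12.7% were called, 7.88% higher and 4.81% lower. Chek1, the effector kinase of ATR, and Topbp1, the ATR activator, showed log2 changes of -0.03 ± 0.25 (SE) and 0.04 ± 0.20. Errors of this size do not show that their levels were the same.

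Chek2 was at 1.74, 1.34, 1.30 and 1.38 CPM in the LPS gradients of pools LUL15 to LUL18, and at 4.45, 5.78, 3.57 and 5.72 CPM in LPS+ET. The groups did not overlap, as held for 26.4% of the tested genes. These levels come from 12 to 26 counts per gradient in LPS and 37 to 67 in LPS+ET. The log2 change was 1.65 ± 0.28 (SE, adjusted p = 0.00102, edgeR). The call was kept in all 8 fits that left out 1 of the 8 gradients, with adjusted p of 0.00144 to 0.00535 (edgeR).

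Atm was at 61.3, 41.8, 68.4 and 63.8 CPM in LPS and at 39.6, 35.6, 25.4 and 28.4 CPM in LPS+ET. No LPS+ET gradient reached the lowest LPS gradient, although LPS LUL16 and LPS+ET LUL15 were close. The log2 change was -0.98 ± 0.21 (SE, adjusted p = 0.00417, edgeR). Prkdc was at 16.9, 12.8, 16.8 and 13.1 CPM in LPS and at 8.91, 11.4, 9.00 and 7.95 CPM in LPS+ET, again without overlap, and its log2 change was -0.79 ± 0.17 (SE, adjusted p = 0.00538, edgeR).

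Neither fall kept its call in every fit that left out a gradient. The call of Atm was lost without LPS LUL15 (adjusted p = 0.0117), LPS LUL17 (0.0133), LPS LUL18 (0.0148), LPS+ET LUL17 (0.0164) or LPS+ET LUL18 (0.0167), all by edgeR, while its log2 change stayed between -1.11 and -0.90. The call of Prkdc remained only without LPS+ET LUL16 (adjusted p = 0.00193, edgeR). Without LPS LUL15, LUL16, LUL17 or LUL18 its adjusted p was 0.0196, 0.01, 0.0172 and 0.0104, and without LPS+ET LUL15, LUL17 or LUL18 it was 0.0203, 0.0176 and 0.0222 (edgeR), with log2 changes of -0.92 to -0.73 in all 8. When each fraction was given equal weight (limma on log2 of mean CPM + 1), the log2 change of Atm was -0.64 ± 0.25 (SE, adjusted p = 0.108) and that of Prkdc -0.07 ± 0.27 (adjusted p = 0.909), and neither was called. Chek2 was called there at 1.32 ± 0.19 (adjusted p = 0.000543). So of the 3 calls, that of Chek2 alone was kept under both alternatives. All 3 were kept with DESeq2, with another scaling (RLE), without the filter on low counts and with the pool as a block.

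Atr, the other large kinase of the group, was at 15.5, 11.8, 23.3 and 18.5 CPM in LPS and 11.8, 11.2, 14.5 and 11.7 CPM in LPS+ET. It was lower in LPS+ET in all 4 pools, but the groups overlapped. The log2 change was -0.59 ± 0.21 (SE, adjusted p = 0.0558, edgeR), and with the pool as a block it was -0.58 ± 0.14 (adjusted p = 0.00591), which passes the threshold. Wee1 was lower in LPS+ET in all 4 pools too, at 22.6 ± 3.19 against 25.8 ± 2.51 CPM (SD, n = 4), with an adjusted p of 0.174 by edgeR. Rad9a (log2 change -0.24 ± 0.32, SE) and Clspn (-0.03 ± 0.31) were not called.

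**Figure D2:**
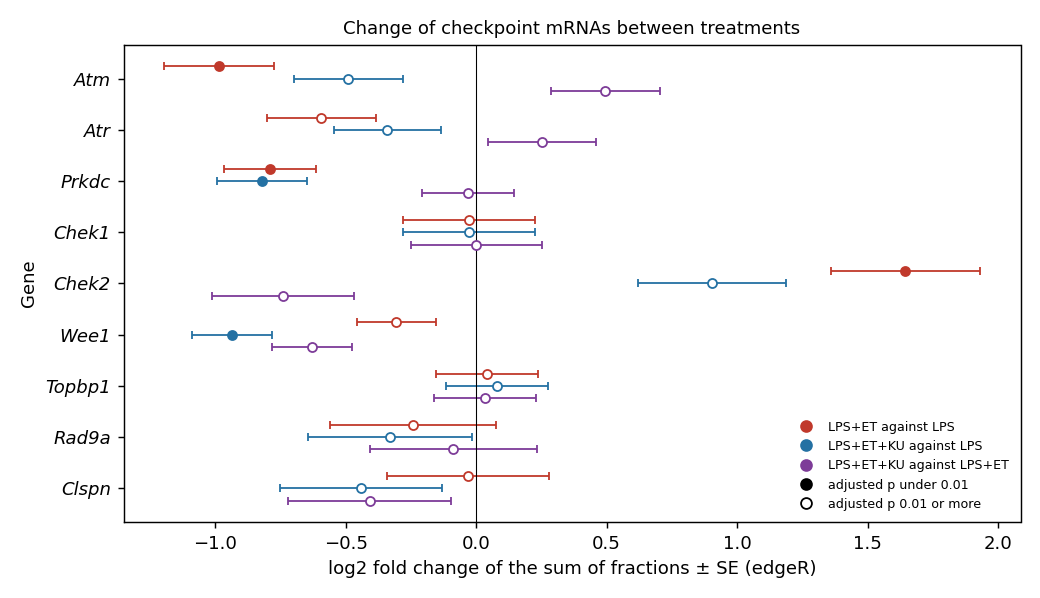
Log2 fold change (horizontal axis) of the summed fractions of 9 mRNAs for the 3 pairs of treatments, with SE as bars. Filled points have an adjusted p under 0.01: Atm (-0.98), Prkdc (-0.79) and Chek2 (1.65) in LPS+ET against LPS, and Prkdc (-0.82) and Wee1 (-0.93) in LPS+ET+KU against LPS.

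In the combined comparison, Wee1 fell 1.91-fold and Prkdc 1.76-fold against LPS. These were 2 of the 8 genes tested, where 10.7% of all 12755 genes were called, 6.25% higher and 4.42% lower. Wee1 was at 27.6, 25.3, 27.9 and 22.5 CPM in LPS and at 16.0, 17.2, 12.3 and 12.9 CPM in LPS+ET+KU, and the groups did not overlap, as in 26.3% of genes. Its log2 change was -0.93 ± 0.15 (SE, adjusted p = 0.00104, edgeR) and it was called in all 8 fits without 1 gradient. With equal weight per fraction its log2 change was -0.50 ± 0.19 (SE) and it was not called (limma, adjusted p = 0.0917).

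Prkdc was at 10.4, 9.60, 7.49 and 9.02 CPM in LPS+ET+KU, below all LPS gradients, with a log2 change of -0.82 ± 0.17 (SE, adjusted p = 0.00486, edgeR). Its call remained only in the fit without LPS+ET+KU LUL16 (adjusted p = 0.00667, edgeR). Without LPS LUL15, LUL16, LUL17 or LUL18 the adjusted p was 0.0199, 0.0102, 0.0157 and 0.0108, and without LPS+ET+KU LUL15, LUL17 or LUL18 it was 0.0124, 0.0167 and 0.0138 (edgeR). With equal weight per fraction its log2 change was -0.14 ± 0.27 (SE, adjusted p = 0.799, limma). Atm was at 50.0, 58.6, 31.5 and 41.6 CPM in LPS+ET+KU and overlapped both other groups, with a log2 change against LPS of -0.49 ± 0.21 (SE, adjusted p = 0.105, edgeR). Chek2 was at 3.37, 4.01, 2.10 and 2.25 CPM, above every LPS gradient, and its log2 change against LPS was 0.90 ± 0.28 (SE, adjusted p = 0.0351, edgeR). With the pool as a block the adjusted p of Chek2 was 0.00996 (edgeR) and with equal weight per fraction 0.00980 (limma), both just past the threshold.

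The inhibitor comparison asks directly what KU55933 changed in cells given etoposide. Without a term for the pool, 0 of the 8 genes were called by edgeR (0.455% of all genes were). At an unadjusted p under 0.05 there were 3 of the 8, Wee1 (0.00118), Chek2 (0.0171) and Atm (0.0330), where 15.9% of all genes reached it. Wee1 was at 25.6, 21.5, 24.8 and 18.6 CPM in LPS+ET, and all 4 LPS+ET+KU gradients were lower, without overlap, as in 8.26% of all genes. Its log2 change was -0.63 ± 0.15 (SE, adjusted p = 0.0484, edgeR). It was called with the pool as a block (adjusted p = 0.00677, edgeR) and by DESeq2 (adjusted p = 0.00531). All 8 fits without 1 gradient missed the threshold (adjusted p = 0.0356 to 0.147, edgeR). Nor was Wee1 called with equal weight per fraction, with only the 8 compared gradients or without the filter on low counts. Atm was higher with the inhibitor in all 4 pools (log2 change 0.50 ± 0.21, SE, adjusted p = 0.258, edgeR) and Chek2 was lower in all 4 (-0.74 ± 0.27, adjusted p = 0.188). The means of Atm and Chek2 in LPS+ET+KU lay between those of LPS and LPS+ET, without a call in this comparison.

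Along the gradient, the 3 large kinases and Clspn sat deepest. In LPS the mean fraction of an mRNA, the centre of its CPM profile over fractions 4 to 16, was 13.3 ± 0.846 for Prkdc, 13.2 ± 0.565 for Atr and 13.1 ± 0.353 for Atm (SD, n = 4). Clspn was at 13.4 ± 0.608, Topbp1 at 11.7 ± 0.227, Chek1 at 11.7 ± 0.332 and Wee1 at 11.3 ± 0.476. The longest coding lengths in GENCODE M21 were 12384 bases for Prkdc, 9198 for Atm and 7923 for Atr, against 4545 for Topbp1, 3945 for Clspn, 1938 for Wee1 and 1428 for Chek1. Among the genes that averaged 100 counts or above, the median mean fraction in LPS was 10.1 for the 2589 with under 1000 coding bases and 12.8 for the 196 with 6000 or more. The 3 kinases lay between the quartiles of the longest class, 12.0 and 13.4. Clspn lay above the upper quartile of its own length class, which was 12.5 for the 795 genes with 3000 to 6000 coding bases. Chek1 lay just above that of the 4021 genes with 1000 to 3000 coding bases, 11.6, and Topbp1 and Wee1 lay below theirs.

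The profiles of Atm, Atr and Prkdc in LPS climbed to the last fraction. Fraction 16 held 36.7% ± 10.8 of Atm, 39.7% ± 7.30 of Prkdc and 28.1% ± 6.29 of Atr (SD, n = 4, each fraction scaled to the same total). Chek1 peaked in fraction 14 with 18.2% ± 4.08 and Wee1 in fraction 13 with 15.9% ± 1.81, and Topbp1 was spread over fractions 13 to 16 at 11.7% to 13.4%. After etoposide with the inhibitor, the means of the kinases were highest in fraction 15 and not 16: Atm had 35.2% ± 15.1, Prkdc 40.5% ± 13.4 and Atr 30.1% ± 11.5 there. Over those 4 gradients together, fraction 15 had 260 counts of Atm, 72 of Prkdc and 71 of Atr. Fraction 16 had 145, 24 and 39, with shares of 16.4% ± 16.3, 13.5% ± 12.4 and 10.1% ± 14.5, so this difference is imprecise. In LPS+ET, fraction 16 still held the most of each, but over all 4 gradients together it had only 112 counts of Atm, 39 of Atr and 37 of Prkdc, so these shares are imprecise.

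**Figure D3:**
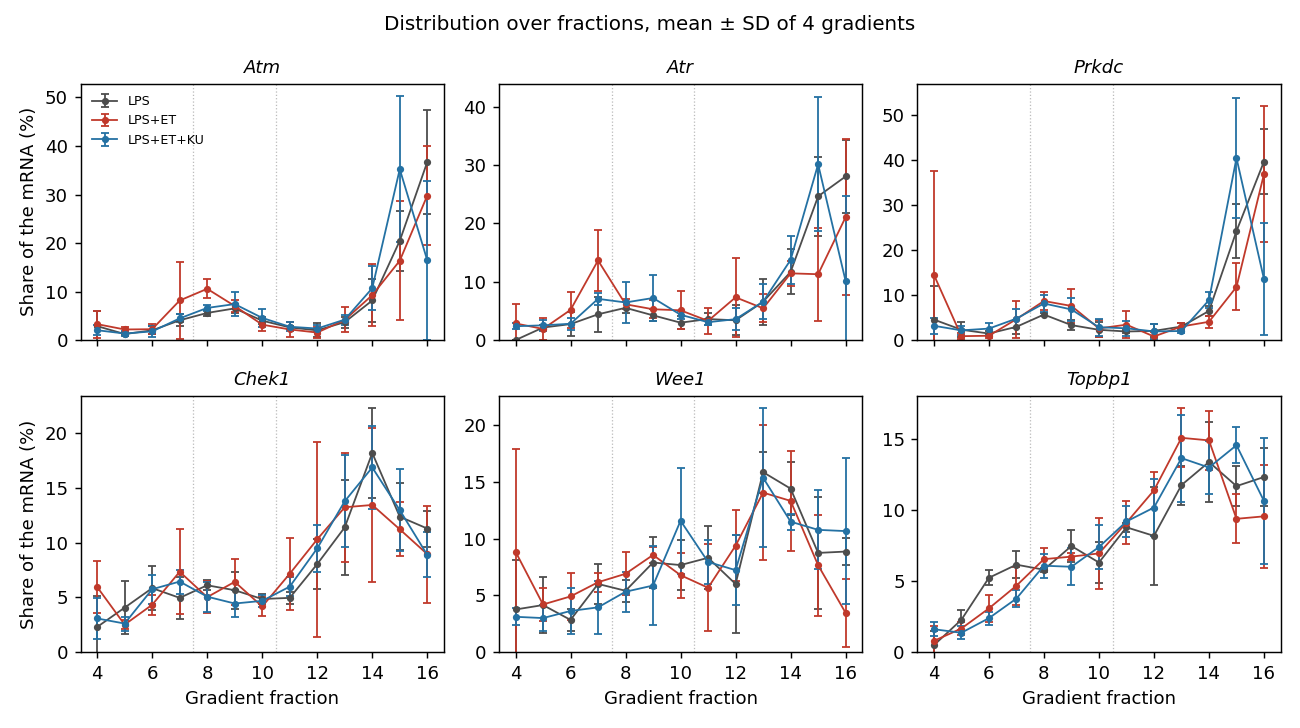
Distribution of 6 mRNAs over gradient fractions 4 to 16 as the share of the mRNA in percent after each fraction library was scaled to the same total. Points are means and bars SD of 4 gradients (lower bars are cut at 0), and dotted lines divide monosomes, light and heavy polysomes. Atm, Atr and Prkdc rise toward fractions 15 and 16, while Chek1 and Wee1 are highest in fractions 13 and 14.

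Separated by class, the falls of Atm and Prkdc were called in heavy polysomes, on counts pooled over fractions 11 to 16. Such a pool weights each fraction by its depth. Over 4 gradients, fraction 16 gave Prkdc 321 counts in LPS and 37 in LPS+ET, at mean levels of 89.9 and 77.8 CPM. For Atm it gave 1161 and 112 counts, at 309.6 and 159.5 CPM. No fit of this class with equal weight per fraction was run. In heavy polysomes, the etoposide comparison called 3 of 8 genes (9.69% of 11368 genes): Prkdc with a log2 change of -1.35 ± 0.25 (SE, adjusted p = 0.00158, edgeR), Atm with -1.26 ± 0.28 (0.00612) and Chek2 with 1.69 ± 0.36 (0.00467). Prkdc was at 23.5, 17.3, 23.4 and 18 CPM of the heavy polysome counts in LPS and at 9.52, 12.3, 7.17 and 5.93 CPM in LPS+ET. The groups did not overlap, as in 22.3% of the 12755 genes, and the call was kept in all 8 fits that left out a gradient. Atm was at 76.5, 51.2, 98.1 and 81.9 CPM in LPS and at 46.6, 42.6, 23.3 and 24.8 CPM in LPS+ET. Its call was lost without LPS LUL15 (adjusted p = 0.0123), LPS LUL17 (0.0200), LPS LUL18 (0.0195), LPS+ET LUL17 (0.0233) or LPS+ET LUL18 (0.0267, edgeR). Chek2 in heavy polysomes rested on 8 to 16 counts per gradient in LPS and 17 to 42 in LPS+ET, and lost its call without any 1 of the 4 LPS gradients (adjusted p = 0.0134 to 0.0189) or without LPS+ET LUL18 (0.0171, edgeR). Atr in heavy polysomes changed by -0.83 ± 0.24 (SE, adjusted p = 0.0269, edgeR), and with the pool as a block it passed (adjusted p = 0.00582). In the combined comparison Prkdc was the 1 gene of 8 called in heavy polysomes (7.95% of genes), at -1.20 ± 0.24 (SE, adjusted p = 0.00391, edgeR). Its call there was lost without LPS LUL15 (adjusted p = 0.0137), LPS LUL17 (0.0128), LPS+ET+KU LUL15 (0.0120) or LPS+ET+KU LUL17 (0.0131, edgeR), and with the pool as a block Wee1 was called too (-0.90 ± 0.20, adjusted p = 0.00348).

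In monosomes, the etoposide comparison called 0 of the 6 genes tested by edgeR, where 9.52% of 8932 genes were called, and 2 of the 6, Topbp1 and Atr, had an unadjusted p under 0.05, as did 32.1% of genes. Topbp1 was at 32.5, 42.5, 17.2 and 42.8 CPM in LPS+ET and at 66.7, 45.3, 42.0 and 71.1 CPM in LPS, with a log2 change of -0.68 ± 0.27 (SE, adjusted p = 0.0947, edgeR) that was called with the pool as a block (adjusted p = 0.00748). In light polysomes, 0 of 8 were called by edgeR (10.6% of 9922 genes). Chek2 came nearest at 1.86 ± 0.47 (SE, adjusted p = 0.0116, edgeR) and was called with the pool as a block (0.00279). The light polysome log2 change of Prkdc was 0.58 ± 0.24 (SE, adjusted p = 0.103, edgeR) and that of Atm -0.24 ± 0.20 (0.442), and neither was called. The combined comparison called 0 of 6 genes in monosomes (5.96% of genes) and 0 of 8 in light polysomes (7.13%) by edgeR, and with the pool as a block Wee1 was called in monosomes at -0.90 ± 0.24 (SE, adjusted p = 0.00643). In the inhibitor comparison, 0 of these genes were called in monosomes, light or heavy polysomes by edgeR, where 0.213%, 0.292% and 0.572% of all genes were.

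Distribution along the gradient was next compared as the ratio of heavy polysome to monosome counts within the same gradients. In LPS this log2 ratio, relative to the normalised whole, was above 0 in 5 of 8 genes at an adjusted p under 0.01, where 25.1% of 11463 genes were above and 46.1% differed either way. These were Prkdc (1.53 ± 0.27, SE), Atm (1.37 ± 0.20), Atr (1.29 ± 0.25), Wee1 (0.81 ± 0.24) and Topbp1 (0.69 ± 0.17), and Clspn was called as well (1.11 ± 0.24). The calls of Prkdc, Atm, Atr and Topbp1 were kept when any 1 LPS gradient was left out, and that of Wee1 was lost without LUL15 (adjusted p = 0.0234, edgeR), LUL17 (0.0219) or LUL18 (0.0238). In LPS+ET, 2 of the 8 were called, Topbp1 (1.79 ± 0.18) and Chek1 (0.78 ± 0.21), where 26.8% of genes were above 0 and 46.1% differed either way, and the call of Chek1 was lost without LPS+ET LUL16, where its log2 ratio was 0.28 (adjusted p = 0.252, edgeR). Wee1 was at 0.79 ± 0.26 in LPS+ET (adjusted p = 0.0117) and was called without LPS+ET LUL18 (0.98, adjusted p = 0.00785, edgeR). In LPS+ET+KU, Topbp1 (1.66 ± 0.17), Wee1 (0.91 ± 0.24) and Atm (0.56 ± 0.18) were called, where 28.7% of genes were above 0 and 50.7% differed either way. Atm lost that call in each of the 4 fits without 1 gradient (adjusted p = 0.0167 to 0.0603, edgeR), and Wee1 lost it without LPS+ET+KU LUL15 (0.0136) or LUL16 (0.0258). The level of these ratios depends on the scaling: with library totals in place of TMM that of Atm was 1.93 in LPS and 1.10 in LPS+ET, and in LPS+ET Atm (adjusted p = 0.000148), Prkdc (0.00574) and Wee1 (5.71e-05) were called as well (edgeR).

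The change of this ratio between treatments compares pooled heavy polysome with pooled monosome counts. It can also move when the depth of fractions within a class differs, so it does not isolate a shift between the classes. Over 4 gradients, fraction 16 gave Topbp1 526 counts in LPS and 71 in LPS+ET, at mean levels of 144.8 and 115.3 CPM. The etoposide comparison called 1 of 8 genes (2.51% of 11463 genes): the ratio of Topbp1 rose by 1.10 ± 0.25 on the log2 scale (SE, adjusted p = 0.00722, edgeR). The call was lost in 7 of the 8 fits without 1 gradient: without LPS LUL15, LUL16, LUL17 or LUL18 the adjusted p was 0.0316, 0.0187, 0.0172 and 0.0336, and without LPS+ET LUL15, LUL16 or LUL17 it was 0.0180, 0.0258 and 0.0325 (edgeR). With library totals in place of TMM the adjusted p was 0.0150. The 3 kinases had changes below 0: Atr -1.24 ± 0.37 (SE, adjusted p = 0.0379, edgeR), Prkdc -0.97 ± 0.46 (0.206) and Atm -0.79 ± 0.30 (0.112), and none passed. With light and heavy polysomes together over monosomes, Atr was called at -1.32 ± 0.35 (adjusted p = 0.00785, edgeR). The combined comparison called 0 of 8 by edgeR (2.34% of genes), with Topbp1 at 0.96 ± 0.24 (adjusted p = 0.0130) and Prkdc at -1.45 ± 0.37 (0.0155). With light polysomes included it called both, Topbp1 at 0.82 ± 0.19 (SE, adjusted p = 0.00183, edgeR) and Prkdc at -1.26 ± 0.33 (0.00729). The inhibitor comparison called 0 of 8 by edgeR (0.0262% of genes), and none of the 8 had an unadjusted p under 0.05.

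**Figure D4:**
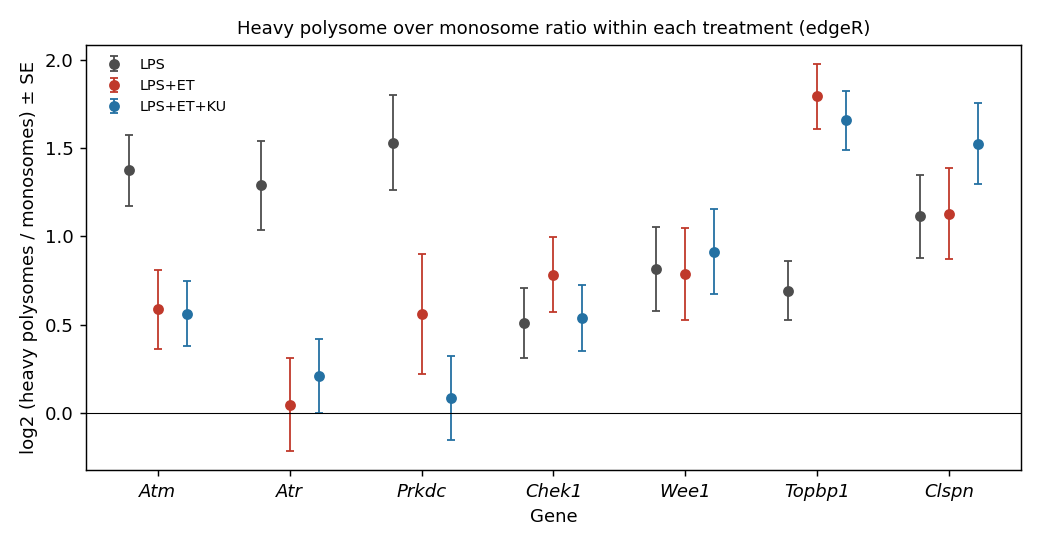
Log2 ratio of heavy polysome to monosome counts (vertical axis, SE as bars) for 7 mRNAs within each treatment, from 4 gradients each. Counts were pooled over the fractions of a class, so the depth of single fractions affects the ratio. Atm, Atr and Prkdc lie at 1.29 to 1.53 in LPS and at 0.05 to 0.59 in LPS+ET, and Topbp1 lies at 0.69 in LPS and 1.79 in LPS+ET.

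RiboLoad, the share of an mRNA in heavy polysomes, is a second measure of this distribution. The study defined it as a proportion of reads, while here each fraction was first scaled to the same total. On counts as deposited, Atr overlapped between LPS and LPS+ET (69.1% in LPS LUL16, 74.9% in LPS+ET LUL17). There, limma called 0 of 8000 genes in the etoposide comparison even at an adjusted p under 0.05. The values that follow are scaled. In LPS it was 77.9% ± 4.53 for Atr, 77.4% ± 7.39 for Prkdc and 73.7% ± 3.05 for Atm (SD, n = 4), against 66.2% ± 2.56 for Topbp1, 66.2% ± 1.74 for Chek1 and 62.2% ± 4.08 for Wee1. The median over 8000 genes was 55.4% on average in LPS and 54.1% in LPS+ET. Atr was at 81.6%, 72.1%, 81.4% and 76.6% in LPS and at 55.6%, 49.3%, 71.0% and 63.7% in LPS+ET, and no LPS+ET gradient reached the lowest LPS gradient, a lack of overlap seen in 13.5% of the 8000 genes. On the logit scale its change was -0.86 ± 0.19 (SE, adjusted p = 0.0300, limma), and limma called 0 of the 6 genes with enough counts in the etoposide comparison (0.312% of 8000 genes), the combined one (0.863%) and the inhibitor one (0%). At an unadjusted p under 0.05 there were Atr and Atm in the etoposide comparison, Atr in the combined one and Atm in the inhibitor one, where 20.6%, 20.9% and 8.56% of the 8000 genes reached it. RiboLoad of Atm went from 73.7% ± 3.05 to 63.3% ± 6.89 in LPS+ET and was 71.7% ± 5.34 in LPS+ET+KU. That of Prkdc spread from 28.5% to 77.5% in LPS+ET, where LUL17 was the low gradient. Topbp1, whose heavy over monosome ratio was called, was at 66.2% ± 2.56 in LPS and 69.5% ± 4.83 in LPS+ET. Its change on the logit scale was 0.16 ± 0.15 (SE, adjusted p = 0.595, limma), so this measure did not bear out that rise.

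Other mRNAs with long coding regions also lay at lower fractions after etoposide. Over the 196 genes with 6000 or more coding bases the median mean fraction went from 12.8 in LPS to 12.1 in LPS+ET and was 12.4 with the inhibitor, while over the 2589 genes under 1000 bases the values were 10.1, 10.2 and 10.1. The mean fraction of Atm was 12.2 ± 0.522 after etoposide and 12.8 ± 0.335 when the inhibitor was added, that of Atr 11.6 ± 1.02 and 12.2 ± 0.137, and that of Prkdc 11.8 ± 2.52 and 12.5 ± 0.670 (SD, n = 4). The mean fraction of Topbp1 was 11.7 ± 0.227 in LPS and 11.8 ± 0.371 after etoposide. These positions were not tested.

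The profile over all fractions was also tested in 1 model, where treatment and its interaction with fraction were set against fraction alone. This fit treats the single-fraction libraries as independent although 13 come from each of 8 gradients, so its p-values are too small. The etoposide comparison called 1 of 7 genes, Atm (adjusted p = 0.00572, edgeR), against 31% of 10360 genes, so a single call is no more than the table's own share. Prkdc was at an adjusted p of 0.0106 and was called with the pool as a block (0.00252). The interaction alone, with a term per gradient, asks for a change of shape and called 0 of 7 by edgeR (593 genes in all), with Prkdc at 0.0193 and Atm at 0.574. The inhibitor comparison called 0 of 7 genes by edgeR (8.01% of 10472 genes), with Atm at 0.0219 and, with the pool as a block, at 0.00343.

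Among 38 tested partners of the pathway, in 3 lists, 4 were called in the etoposide comparison, beside 12.7% of all genes. Of 15 ATR side genes (the clamp, its loaders, RPA and fork proteins), 0 rose and 1 fell in the etoposide comparison, with a median log2 change of -0.01 beside 0.03 over all 12755 genes. The one that fell was Rhno1, which binds the clamp and TopBP1, from 36.03 ± 4.99 to 25.7 ± 2.43 CPM (adjusted p = 0.00928, edgeR). Of 14 ATM and DNA-PK side genes tested, 1 rose and 1 fell (median -0.13). Atmin, a cofactor of ATM, rose from 33.4 ± 2.48 to 60.6 ± 3.82 CPM (adjusted p = 0.00261, edgeR), and H2afx, the histone that ATM phosphorylates beside breaks, fell from 137 ± 55.6 to 30.3 ± 12.8 CPM (adjusted p = 0.00123). Of 9 relatives of these kinases and their assembly factors, 0 rose and 1 fell (median -0.25): Ruvbl2, an ATPase that helps to assemble them, from 326.5 ± 26.4 to 231 ± 20.2 CPM (adjusted p = 0.00981, edgeR). The related kinases themselves were not called, with log2 changes of -0.27 ± 0.19 for Mtor, -0.41 ± 0.24 for Trrap and -0.10 ± 0.20 for Smg1 (SE). In the combined comparison the 3 lists had 0 higher and 1 lower, 1 higher and 1 lower, and 0 higher and 2 lower (medians -0.33, -0.21 and -0.54), beside 6.25% higher and 4.42% lower of all genes. The inhibitor comparison called none of their genes by edgeR (medians -0.11, -0.07 and -0.25).

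Downstream of the checkpoint kinases, 1 of 14 targets and phosphatases rose in LPS+ET and 4 fell (median -0.78), where 7.88% of all genes rose and 4.81% fell. Ppm1d, the phosphatase WIP1 that turns off ATM, Chk1 and Chk2 signals, went from 15.7 ± 1.10 to 74.2 ± 5.20 CPM, a log2 change of 2.13 ± 0.15 (SE, adjusted p = 1.22e-06, edgeR). In the inhibitor comparison it fell by 1.14 ± 0.15 on the log2 scale, to 33.8 ± 5.78 CPM (adjusted p = 0.00179, edgeR), the 1 gene of the list called there (median -0.17). In the combined comparison 1 gene of the list, Ppm1d, was called higher and 6 were called lower (median -0.77), where 6.25% of all genes were higher and 4.42% lower. Of the 4 that fell in LPS+ET, Plk1, a mitotic kinase, changed by -2.39 ± 0.32, Ccnb1, a cyclin of CDK1, by -1.50 ± 0.20, and Bora, an activator of Plk1, by -1.50 ± 0.22 (SE). The fourth was Ccnb2, with -1.22 ± 0.21.

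The cell cycle lists moved at the same time, but they are not separate from the list above: Plk1, Ccnb1 and Ccnb2 are also in the G2 and M phase list, so their falls are counted in both. Of 20 G2 and M phase mRNAs, 10 fell and 0 rose in the etoposide comparison (median log2 change -1.04), and 16 fell and 0 rose in the combined one (median -1.66), where 4.81% and 4.42% of all genes fell. The inhibitor comparison called 0 of them by edgeR (median -0.49). Of 20 S phase mRNAs, edgeR called 0 in the etoposide comparison (median 0.01), 2 lower in the combined one (median -0.28) and 0 in the inhibitor one (median -0.33). Several genes of the group, among them Chek1, Topbp1, Clspn and Wee1, are known to vary over the cell cycle, and a change in the share of cells in a phase and a change of mRNA per cell cannot be told apart in these bulk samples. The part of cell cycle phase in the values of these genes was not tested.

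Over the 12 gradients, the log2 CPM of Wee1 followed that of Mcm6, a helicase subunit of the S phase list (Pearson r = 0.943), and of Cbfa2t3 (0.941), as a description over gradients that share treatments and pools. Chek1 was most like Pacs1 and Ezr (both 0.945), Atm like Cdk19 (0.920) and Gm3571 (0.916), and Topbp1 like Hpse (0.863) and Gbe1 (0.861), each the nearest of 5540 genes with a mean of 20 CPM or more. Atr, Prkdc, Clspn, Rad9a, Chek2 and Atrip were below that level.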

How the data were processed

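The authors reverse transcribed equal concentrations of RNA from each fraction, removed PCR duplicates by 5 random barcode bases, trimmed A tracts, mapped the reads to GRCm38 and summed counts per Ensembl gene. The deposited table holds whole-number counts per gene, without normalization. The aligner of these tags is not given in the sources used here. The submitters' processing notes list TopHat2 2.0.12, HTSeq and DESeq2 1.6.3 with no role.

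Fractions 4 to 16 were summed per gradient (12 gradients, 6404957 to 21449781 counts) and per class. Differences were tested with edgeR 4.0.16 (TMM, default filter on low counts, quasi-likelihood test, two-sided) with 1 coefficient per treatment fitted to the 12 gradients, and called at an adjusted p under 0.01. RiboLoad was a logit with a prior of 0.5, for genes that averaged 100 counts or above, tested with limma 3.58.1. The single-fraction libraries (104 per pair of treatments) were tested with edgeR for the profile. DESeq2 1.42.0, other scalings, filters, each gradient left out and the pool as a block were alternatives. The study's methods used DESeq2 with fraction and condition terms. The fits were tested on simulated data. R 4.3.3 and Python 3.11.15 were used.

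Of the 157 columns, 79 matched a single sample and 78 a treatment and fraction only. The fraction 17 library, with 777 counts, was not analysed here. Pools came from the column names: deviations from treatment means correlated at r = 0.360 to 0.842 in all 12 same-pool pairs of gradients, each over 0.1, and at -0.650 to 0.334 between pools, so pools were taken to pair the gradients. Genome positions in the table are counted from 0 and are given from 1. Sites were placed with GENCODE release M21.

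Named genes were the members, and, from each pathway list, genes called in the etoposide or inhibitor comparison, at most 3 per list and comparison by size of change. For lists with 5 or fewer, any could be named. Mtor, Trrap, Smg1 and Ccnb2 were named after their values were seen. The members and lists were chosen with earlier results of these data known.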

Additional observations from a re-analysis of the deposited data

Results flagged for a closer look

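Over 57 groups of 4 gradients (level or heavy polysome share of 1 gene in 1 treatment), 3 held a gradient far from the other 3 by Dixon's criterion, where chance flags about 1 group in 20. Atr in LPS+ET was at 14.5 CPM in LUL17 against 11.2 to 11.8 in the others. Chek2 in LPS was at 1.74 CPM in LUL15 against 1.30 to 1.38. Rad9a in LPS+ET+KU was at 7.23 CPM in LUL16 against 3.09 to 3.70. Their origin was not tested.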

How the results depend on the processing

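Of the 8 genes tested on the summed fractions, the 3 called in the etoposide comparison became 1 (Chek2) with equal weight per fraction, 2 (without Prkdc) with only the 8 compared gradients and 1 to 3 when a gradient was left out. They became 4 with the pool as a block (Atr added) and stayed 3 with DESeq2, with RLE and without the filter on low counts. In the combined comparison, the 2 called became 1 (Wee1) without the filter on low counts, 1 with equal weight (Chek2, in place of both) and 1 to 2 without a gradient. They became 3 with the pool as a block (Chek2 added) and stayed 2 with DESeq2 and with RLE. In the inhibitor comparison, 0 became 1 (Wee1) with DESeq2, with the pool as a block and at a threshold of 0.05. With that replicate block, monosomes had 1 call of 6 in the etoposide comparison in place of 0 (2195 of 8932 genes were called). Light polysomes had 1 of 8 in place of 0 (2482 of 9922 genes). The polysome distribution had 2 of 7 in place of 1 (4315 of 10360 genes) and, in the inhibitor comparison, 1 of 7 in place of 0 (1919 of 10472 genes). None of these counts exceeds the share over all genes. The block raised all calls from 1618 to 3403, from 1361 to 3589 and from 58 to 811 in the 3 pairs, DESeq2 gave 2391, 2263 and 412, equal weight 1042, 792 and 18, and the 8 compared gradients alone gave 0 in the inhibitor comparison. At a threshold of 0.05 (added after seeing the data for RiboLoad), light polysomes had 1 (1957 of 9922 genes) and the heavy over monosome ratio 2 (854 of 11463) in the etoposide comparison. RiboLoad had 1 there (255 of 8000 genes) and 0 on counts as deposited. The polysome distribution had 2 in the etoposide comparison (4231 of 10360 genes) and 1 in the inhibitor comparison (1384 of 10472). Heavy polysome calls in the etoposide comparison were 1 to 3 without a gradient. The ratio change in the etoposide comparison was called in 2 genes with light polysomes included (700 of 11847 genes), in 0 with library totals and in 0 to 1 without a gradient. In the combined comparison it was called in 2 in place of 0 with light polysomes included (745 of 11847 genes). The interaction alone called 0 in place of 1 for the polysome distribution.

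Log2 changes changed sign with equal weight per fraction for Atm (0.157) and Atr (0.165) in the combined comparison, for Chek1 (0.155 and 0.197 in the etoposide and the combined comparison), Rad9a (0.136) and Clspn (0.078) in the etoposide comparison. They did so for Chek1 in the inhibitor comparison (-0.011 with DESeq2, -0.013 with RLE, -0.018 with the block and -0.000 with only the 8 compared gradients), and for Topbp1 in the etoposide comparison (-0.002 without the filter). None of these was called, and the cause was not tested. Leaving out a gradient gave -0.084 to 0.094 for Prkdc, -0.301 to 0.237 for Chek1, -0.156 to 0.125 for Topbp1 and -0.466 to 0.120 for Rad9a in the inhibitor comparison. It gave -0.266 to 0.045 for Chek1, -0.041 to 0.143 for Topbp1 and -0.138 to 0.126 for Clspn in the etoposide comparison, and -0.336 to 0.085 for Chek1 and -0.120 to 0.182 for Topbp1 in the combined comparison. The log2 heavy over monosome ratios of single genes (added after seeing the data) reversed for Atr in LPS+ET (-0.327) and LPS+ET+KU (-0.005) and for Prkdc in LPS+ET+KU (-0.001) with light polysomes included. Without a gradient they ran from -0.072 to 0.099 for Atr in LPS+ET and from -0.095 to 0.219 for Prkdc in LPS+ET+KU.

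Depth limits Atrip (0 to 17 counts per gradient), Chek2 (12 to 86) and single fractions of Atr and Prkdc. Sites of 1 gene were summed in the table, so the Atm sites could not be compared.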

Other observations

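Gene span differed widely within the group, from 6.4 kb for Rad9a to 94.0 kb for Atr, 97.6 kb for Atm and 204.4 kb for Prkdc. In the etoposide comparison, 8.02% of the 1958 tested genes that span 90 kb or more fell and 4.09% rose, while 4.04% of the 5971 genes under 20 kb fell and 8.44% rose. In the combined comparison, which shares the LPS gradients, 8.48% of the long genes fell and 1.84% rose, against 2.86% and 7.25% of the short ones. The median log2 change of the long genes was 0.05 and that of the short ones 0.01 in the etoposide comparison. These shares are descriptions of the table, span was looked at after the values of the kinases had been seen, and no test was run.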
